A study of Mus musculus with 3 samples.

Results

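E proteins are basic helix-loop-helix (bHLH) transcription factors, encoded by Tcf3, Tcf4 and Tcf12, and Id proteins, encoded by Id1, Id2, Id3 and Id4, are their inhibitors. Binding of the hindlimb factors Tbx4 and Hoxc10 was examined around these 7 genes, out of 21883 protein-coding genes on the primary chromosomes. A binding site here is a summit, the 1 bp position at which the peak caller MACS2 placed the top of a peak. A summit was counted for a gene when it lay inside it or between it and the next protein-coding gene on either side, up to 1 Mb away, and this stretch is called the domain of the gene. The 7 genes lie on 7 chromosomes, so no summit was counted for more than 1 of them. The genes were chosen by family, with the number, position and score of their summits and their shared sites already known from these same lists, so these values are given as a description with no test.

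E proteins bind DNA at the E-box, a short sequence with the letters CANNTG, as dimers with each other or with bHLH factors of single tissues, such as Twist and Hand factors in limb mesenchyme and Myod1 in muscle. Id proteins have the dimerization part but lack the basic part that contacts DNA, so an E protein paired with an Id protein cannot bind. Id genes are known targets of BMP and Smad signalling, and the balance of E and Id proteins is known for setting when progenitors of muscle and other lineages differentiate. Tcf4 here is the E protein gene, also called E2-2. The Wnt effector that is often given the same name in work on limb connective tissue is Tcf7l2, a different gene.

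The sites came from chromatin immunoprecipitation with sequencing (ChIP-seq) of hindlimb buds of CD1 mouse embryos, wild type in genotype and at stage e11.5, when the limb bud is being patterned. The Tbx4 sample was precipitated with a homemade antibody (1695a) and the Hoxc10 sample with an Abcam antibody (ab153904). There is 1 sample for each factor and no replicate, and another sample, Hoxc10 with a Santa Cruz antibody, was not analysed here. The buds hold several cell types, lists of summits carry no marker by which the tissue label could be checked, and no site can be assigned to a cell type. The deposited lists hold 4780 Tbx4 and 1614 Hoxc10 summits, each with a MACS2 score on a −log10 scale. The median score was 3.67 in the Tbx4 list (quartiles 2.94 and 7.14) and 7.72 in the Hoxc10 list (quartiles 5.05 and 12.99). Scores were read only within their own list, and the read depth behind them is unknown.

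The domains of the 7 genes held 22 Tbx4 summits and 8 Hoxc10 summits. Tcf4 had 14 of the Tbx4 and 4 of the Hoxc10 summits, more than the other 6 genes together had of Tbx4 and as many as they had of Hoxc10. Id2 followed with 2 Tbx4 and 2 Hoxc10 summits, Tcf12 with 2 and 1, Id3 with 2 and 0, Id4 with 1 and 1, and Id1 with 1 and 0. Tcf3 had 0 of either factor. A Tbx4 summit was thus present at 6 of the 7 genes, where 17.2% of all protein-coding genes had one, and a Hoxc10 summit at 4 of 7, where 6.83% of all genes had one. Summits of both factors were present at 4 of 7 genes (5.0% of all genes) and a co-bound pair, with a Tbx4 summit within 200 bp of a Hoxc10 summit, at 1 of 7 (2.66% of all genes). These percentages describe all genes under the same rule. Nothing is read from the difference, because the genes were picked with these counts in view. Domain length stands in the way too: all domains except that of Id1 were longer than the median over all genes.

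**Figure D1:**
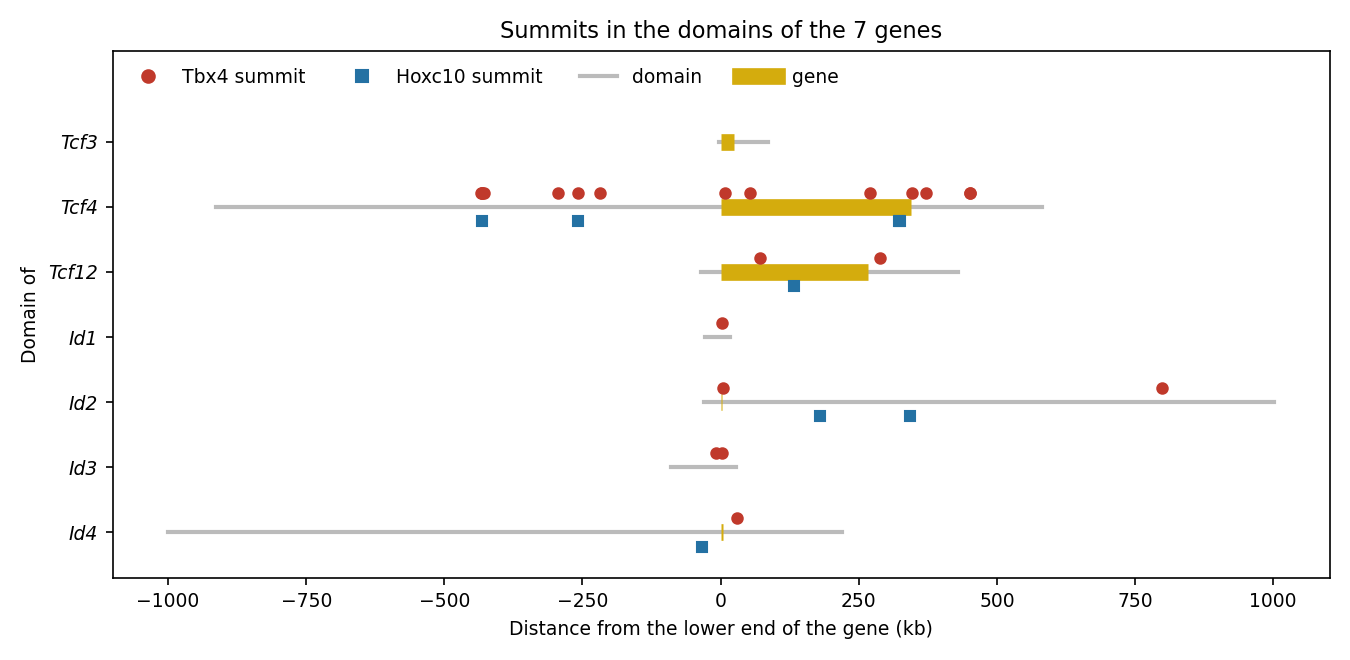
Positions of the Tbx4 (circles) and Hoxc10 (squares) summits in the domains of the 7 genes, in kb from the lower end of each gene. Grey lines are domains and yellow bars are genes, too short to see for Id1 and Id3. The 14 Tbx4 summits of Tcf4 are spread on both sides of the gene and inside it. Its 4 Hoxc10 summits lie below the gene and inside it, and the Tcf3 line is empty.

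Domain length differed widely among the genes. It was 1496 kb for Tcf4, 1220 kb for Id4, 1033 kb for Id2, 465.3 kb for Tcf12, 118.9 kb for Id3, 88.1 kb for Tcf3 and 45.2 kb for Id1, against a median of 67.3 kb over all protein-coding genes. Per length, Tcf4 had 9.36 Tbx4 and 2.67 Hoxc10 summits per Mb. Over all domains joined, 2647 Mb, the density was 1.8 Tbx4 and 0.604 Hoxc10 summits per Mb. Tcf12 had 4.30 and 2.15 summits per Mb, Id2 1.94 and 1.94, and Id4 0.82 and 0.82. The short domains of Id1 and Id3 gave 22.1 and 16.8 Tbx4 summits per Mb, from 1 and 2 summits only. With domains of at most 100 kb to each side, Tcf4 had 5 Tbx4 and 2 Hoxc10 summits and all 7 genes together 12 and 4. Without Tcf4, the other 6 domains together had 2.69 Tbx4 and 1.35 Hoxc10 summits per Mb.

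**Figure D2:**
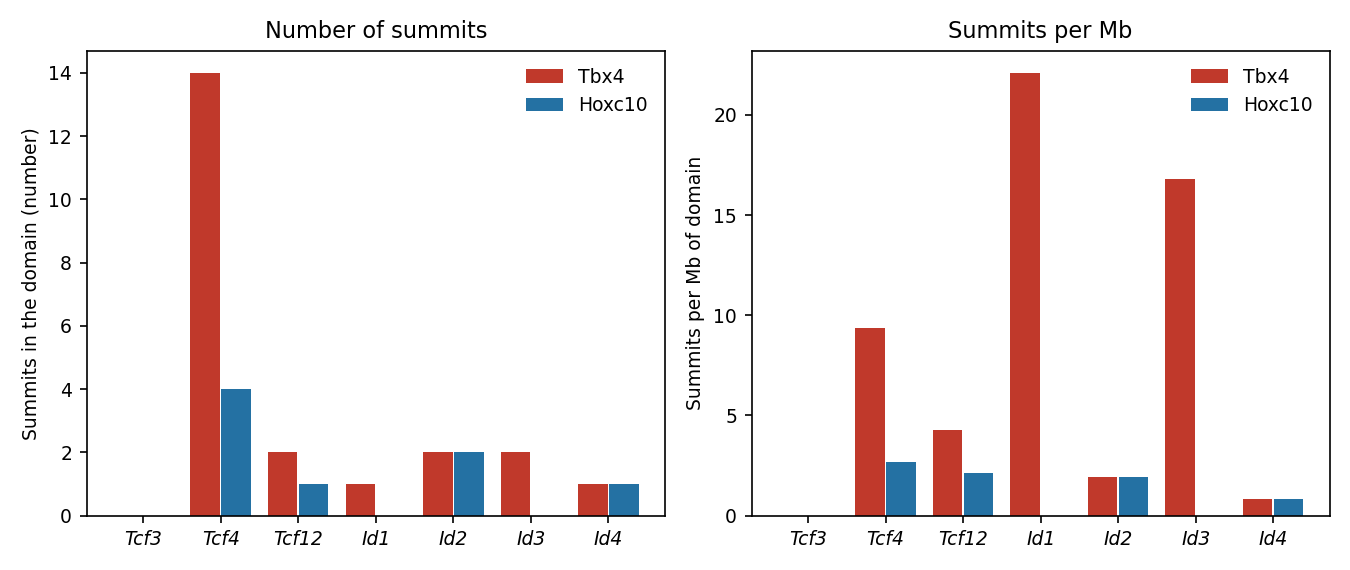
Number of summits (left) and summits per Mb of domain (right) for each gene, Tbx4 in red and Hoxc10 in blue. Tcf4 has the highest bars by number, 14 and 4, while by length the single Tbx4 summit of Id1 gives the tallest bar, 22.1 per Mb.

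Among genes of similar reach, sites were common. Of the 906 protein-coding genes with a domain of 1 Mb or more, 56.2% had a Tbx4 summit, 38.2% a Hoxc10 summit, 34.1% both and 18.4% a co-bound pair. Id2 and Id4 are in this class, whose median was 1 Tbx4 and 0 Hoxc10 summits. Id2, with 2 of each, was above both medians. Id4, with 1 of each, was at the median for Tbx4 and above it for Hoxc10. Tcf4 is in this class too. With a cut taken from Tcf4 itself, 14 or more Tbx4 summits were found at 11 of the 906 genes (1.21%). The same held for 15 of all 21883 genes (0.0685%), Tcf4 included. Its count was known beforehand and holds close groups of summits counted singly, so these shares are no test. Among the 15849 genes with domains under 150 kb, which include Tcf3, Id1 and Id3, 9.25% had a Tbx4 summit and 1.7% a Hoxc10 summit.

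Tcf4 encodes the E protein E2-2. It lies at 69343429 to 69687967 of chromosome 18 (mm10), in a domain that runs from Mc2r, a melanocortin receptor gene, to Ccdc68. Of its 14 Tbx4 summits 3 lay inside the gene, and of its 4 Hoxc10 summits 2 did. The Tbx4 summits in the gene were at 69352147, 8718 bp from its lower end (score 8.12), at 69397254 (4.46) and at 69614289 (7.14). The Hoxc10 summits in the gene stood 1550 bp apart near its upper end, at 69666214 (5.69) and 69667764 (11.45), and the nearest Tbx4 summit was 22652 bp from the second of these. That Tbx4 summit, at 69690416, lay 2449 bp above the gene. Between listed summits inside the gene, the shortest distance between the factors was 51925 bp. Peaks that were called but left out of the lists, described below, may lie nearer.

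The co-bound pair of Tcf4 lay 258744 bp below the gene, measured from its Hoxc10 summit, over the long noncoding RNA gene Gm31088. Its Tbx4 summit at 69084565 scored 9.15 and its Hoxc10 summit at 69084685, 120 bp away, scored 12.24. The Tbx4 score was above those of 81.6% of its list, and the Hoxc10 score above those of 72.0% of its list, and no other Tcf4 summit scored higher within its list. A second meeting of the factors fell just outside the 200 bp limit. At 68911008, over the long noncoding RNA gene 4930546C10Rik and 432421 bp below Tcf4, a Hoxc10 summit of 9.16 stood between 3 Tbx4 summits, at 68910075 (4.46), 68910798 (5.3) and 68911351 (2.94). It was 210 bp from the nearest of them and 343 bp from the next, and a further Tbx4 summit followed at 68916070 (6.19).

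Several Tbx4 summits of Tcf4 stood close together. Of the 14, 5 had another Tbx4 summit within 1000 bp (35.7%), against 245 of all 4780 (5.13%). They belong to 2 places, the group of 3 at 4930546C10Rik and a pair 458 bp apart above the gene, at 69794707 (9.15) and 69795165 (5.3), 106740 and 107198 bp from its upper end. The remaining Tbx4 summits were single: 69048816 (2.26) and 69125310 (4.46) below the gene, and 69690416 and 69714907 (2.26 each) above it. All 14 were counted singly, although the summits within these 2 places are not independent sites.

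**Figure D3:**
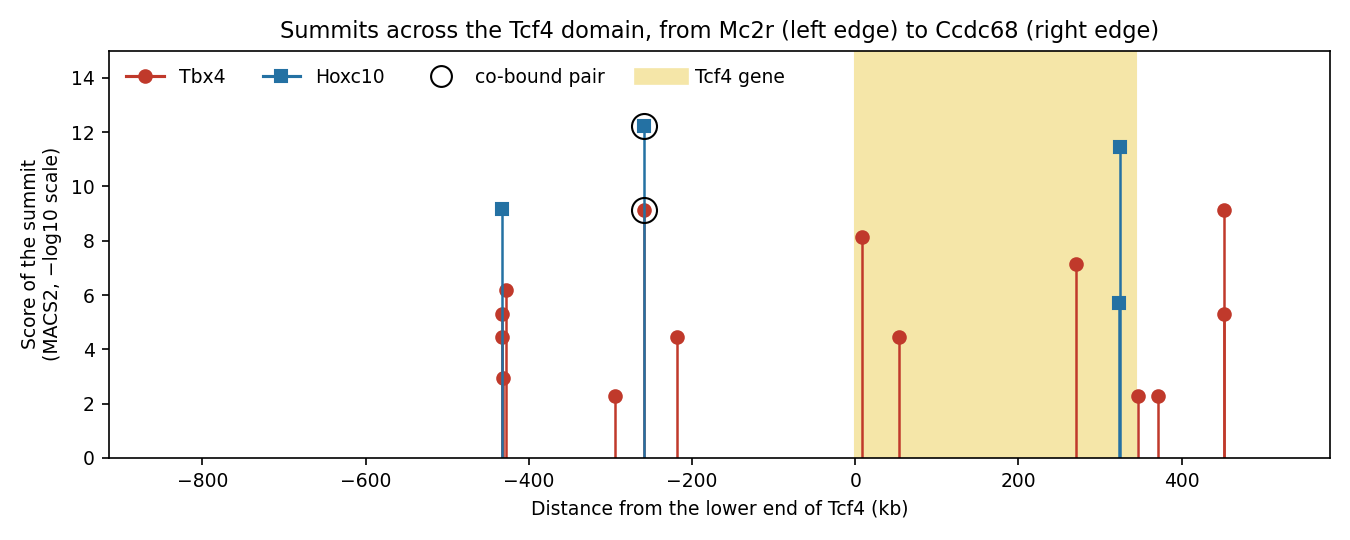
Score of each Tbx4 (circles) and Hoxc10 (squares) summit across the Tcf4 domain, by distance in kb from the lower end of the gene, whose extent is shaded. The ringed co-bound pair holds the highest Hoxc10 score, 12.24, and 1 of the 2 highest Tbx4 scores, 9.15.

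The peak numbers that MACS2 gave show how many peaks were called and left out of the list. Numbers rise with position. From the first to the last Tbx4 summit of Tcf4 there are 19 numbers, of which 14 are listed, and both ends are listed by construction. From the listed summit below the domain to the one above it, a span of 4740 kb that reaches far outside the domain, 76 numbers lie between, so that more unlisted peaks may be in the domain. The same first-to-last count gave 2 listed of 8 for Tcf12, 2 of 6 for Id2 and 2 of 2 for Id3. Over the whole list 10.6% of the numbers are present. For Hoxc10 the first to the last Tcf4 summit span 8 numbers, of which 4 are listed, with 12 between the listed summits outside the domain and 40.1% present over its whole list.

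Among all other protein-coding genes, Mycn had the counts nearest to those of Tcf4, with 14 Tbx4 summits, 4 Hoxc10 summits and 3 co-bound pairs. Likeness was the sum of the differences in these 3 counts, each from the 1 sample of its factor. Osr1 (11, 4 and 1) and Pard3b (12, 3 and 1) followed with a sum of 3, tied with Sox11, Mctp2 and Auts2.

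Tcf12 encodes the E protein HEB and lies at 71844252 to 72111893 of chromosome 9, between Cgnl1 and Zfp280d. A Tbx4 summit at 71916098 (score 3.67, at the list median) and a Hoxc10 summit at 71976195 (9.91, above 61.2% of its list) lay inside the gene, 60097 bp from each other. The gene has an inner start at 71896096 in the RefSeq promoter table, and the Tbx4 summit was 20002 bp upstream of it. The other Tbx4 summit, at 72133336 (2.26), was 21443 bp from the upper end of the gene, upstream of its outer start.

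Tcf3 encodes the E proteins E12 and E47 and lies at 80409541 to 80433976 of chromosome 10, between Uqcr11 and Onecut3. Its nearest Tbx4 summits were outside the domain, 251 kb below the gene (score 4.46) and 421 kb above it (5.3). Only 4 peak numbers separate these 2 summits, so at most 4 Tbx4 peaks were numbered there and left out of the list. The nearest Hoxc10 summit was 482 kb away. A count of 0 covers only this domain in these lists and does not show that Tcf3 was unbound.

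The 4 Id genes each had a Tbx4 summit, and none lay inside the small genes themselves. The highest belonged to Id2, known for its role in keeping progenitors undifferentiated. It stood at 25098920 of chromosome 12, 2828 bp upstream of the Id2 start, with a score of 10.21, above 84.3% of the list and the highest Tbx4 score among the 22 summits. The Id1 summit stood at 152739500 of chromosome 2, 2090 bp above the upper end of the gene (4.46). Id3 had a summit at 136135234 of chromosome 4, 8588 bp upstream of its start (4.46), and another at 136146828, 1436 bp beyond its far end (2.94). The Id4 summit stood at 48290686 of chromosome 13, 24658 bp beyond the far end of the gene (4.46). At Id1, Id2 and Id3 a Tbx4 summit thus lay within 3 kb of an end of the gene, and at Id4 it lay farther out.

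Hoxc10 summits were seen at Id2 and Id4 only, the Id genes with domains of 1 Mb or more. Id1 and Id3 have domains under 150 kb, a length at which 1.7% of all genes had a Hoxc10 summit. The Hoxc10 summits of Id2 stood at 25272951 (score 10.67) and 25436748 (3.83). They were 176859 and 340656 bp upstream of the start, in the wide interval towards Rnf144a. The second Tbx4 summit of this interval, at 25891864 (4.46), was 795772 bp from Id2 and nearer to Rnf144a. The Hoxc10 summit of Id4 stood 33185 bp upstream of its start, at 48227931, over the long noncoding RNA gene A330033J07Rik (5.05, above 23.2% of its list). No Id gene had a co-bound pair. The shortest distance between summits of both factors was 62755 bp, at Id4.

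At the edges of the domains, a Tbx4 summit of 3.67 lay 4997 bp outside that of Id3, on the side of Rpl11, and another of 5.3 lay 13332 bp outside that of Id4, just past the 1 Mb limit.

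No summit of either factor fell into a promoter window of these genes. The RefSeq table (GRCm38.p6) holds 7 windows for Tcf3, Tcf12, Id2, Id3 and Id4, each from 250 bases before a start to 50 after it, and none for Tcf4 or Id1. In the whole lists 4.27% of Tbx4 and 1.55% of Hoxc10 summits fell into such a window of a protein-coding gene. The 250 bases before the starts of Id2 and Id3 are shown, as these are the Id genes with a known start and a Tbx4 summit within 10 kb of it. They read 5′ to 3′ on the strand of the gene, with E-boxes (CANNTG) and the T-box core (GGTGTG, either strand) in capitals. The Id2 stretch is chr12:25096093-25096342 on the minus strand and the Id3 stretch chr4:136143572-136143821 on the plus strand.
Id2: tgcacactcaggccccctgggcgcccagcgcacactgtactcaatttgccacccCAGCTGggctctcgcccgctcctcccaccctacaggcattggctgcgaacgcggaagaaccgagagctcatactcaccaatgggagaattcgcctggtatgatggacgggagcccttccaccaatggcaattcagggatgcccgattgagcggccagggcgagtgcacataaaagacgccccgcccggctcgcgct
Id3: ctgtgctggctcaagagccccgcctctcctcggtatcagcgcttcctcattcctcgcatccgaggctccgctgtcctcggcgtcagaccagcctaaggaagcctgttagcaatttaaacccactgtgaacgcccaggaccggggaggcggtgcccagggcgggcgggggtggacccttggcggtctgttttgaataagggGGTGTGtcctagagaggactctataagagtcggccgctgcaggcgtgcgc
The Id2 stretch holds 1 E-box and no T-box core, and the Id3 stretch 1 T-box core and no E-box.

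Across the 7 windows, the T-box core was present in 1, that of Id3, against 18.4% of 21262 windows of protein-coding genes, and the longer T-box site AGGTGTGA in 0, against 1.15%. The E-box was present in 5 of 7 windows, all 3 of Tcf12 and those of Tcf3 and Id2, against 69.0% of all windows. The posterior Hox site TTTATGG was in 0 (2.26% of all windows) and its core TTTAT in 2, that of Id2 and the inner one of Tcf12 (35.0%). Each motif was searched on both strands, each core is part of its longer site, and a match is only a run of letters. The sequence under the summits themselves was not analysed here.

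The summits of the 7 genes were of middling height. Tbx4 scores ran from 2.26 to 10.21 with a median of 4.46, and 15 of 22 were above the median of the list but only 4 above its upper quartile. Hoxc10 scores ran from 3.83 to 12.24 with a median of 9.54; 5 of 8 were above the median of the list and 0 above its upper quartile. The highest scores of the whole lists were 317.1 for Tbx4 and 237.9 for Hoxc10.

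**Figure D4:**
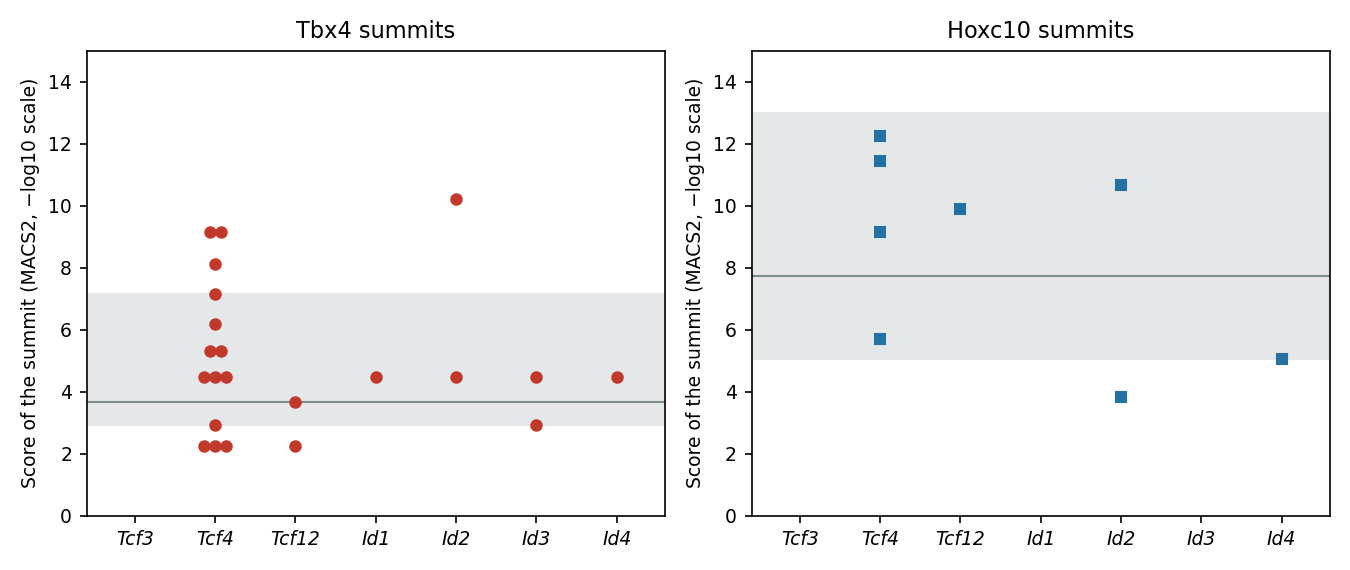
Score of every Tbx4 summit (left) and Hoxc10 summit (right) in the domains of the 7 genes, on the −log10 scale of MACS2. The line is the median and the band the quartiles of the whole list; 4 Tbx4 summits and 0 Hoxc10 summits stand above the band. Points of equal score are set side by side.

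Few summits of the 7 genes were co-bound, and the numbers are small. Of the 22 Tbx4 summits 1 was co-bound, 4.55% (95% Clopper-Pearson interval 0.115 to 22.8%), against 10.9% of the whole list. Of the 8 Hoxc10 summits 1 was co-bound, 12.5% (0.316 to 52.7%), against 32.1% of the whole list. The intervals cover counting error only and take summits as independent, and the shares were not tested against the whole list. Of the Tbx4 summits 4 of 22 lay inside a protein-coding gene (18.2%), against 46.5% of the list, and 10 of 22 were over 100 kb from any gene end (45.5%), against 29.2%. For Hoxc10, 3 of 8 lay inside a gene (37.5%), against 38.9%, and 5 of 8 were over 100 kb from a gene end (62.5%), against 39.2%. None of the 30 summits was within 1 kb of a gene end, where 12.8% of all Tbx4 and 5.02% of all Hoxc10 summits lay. Positions are part of how the genes were chosen, and these shares were not tested.

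Genes that act with E and Id proteins were described in the same way. A list of 15 genes for bHLH factors, taken as partners of E proteins, held factors of limb mesenchyme, tendon and muscle, and some of other tissues. Of these 15 genes, 5 had Tbx4 summits, 7 Hoxc10 summits and 3 a co-bound pair, in domains with a median of 84.8 kb. Over all protein-coding genes, with a median of 67.3 kb, the shares were 17.2%, 6.83% and 2.66%. The list was not tested against these shares. Hand2, needed for posterior limb identity, had 7 Tbx4 and 2 Hoxc10 summits with no pair; Msc had 6 and 1 with 1 pair, Hand1 4 and 2 with 1 pair, and Twist2, a factor of dermis and mesenchyme, 3 and 2 with 1 pair. The myogenic genes Myod1, Myf5, Myf6 and Myog had 0 of either factor, in short domains of 84.8, 67.7, 27.4 and 61.3 kb. Among all genes with domains under 150 kb, 9.25% had a Tbx4 and 1.7% a Hoxc10 summit, so nothing is read from these zeros. Twist1, needed for limb mesenchyme, had 0 Tbx4 and 2 Hoxc10 summits.

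Of 18 genes of BMP and Smad signalling, which acts upstream of Id genes, 9 had Tbx4 summits, 6 Hoxc10 summits and 4 a co-bound pair, in domains with a median of 297 kb. The receptor gene Bmpr1b had 7 Tbx4 and 1 Hoxc10 summits, and the ligand genes Bmp4 and Bmp2 had 5 and 2, and 4 and 2. Pairs were found at Bmp4 (2), Bmp5 (1), Msx2 (1), a BMP target of limb mesenchyme, and Smad6 (1), an inhibitor of the pathway. Of the 18 genes 9 had summits of neither factor, among them Smad1, Smad4 and Smad5, which carry the signal to Id genes. The domains of Smad1, Smad4 and Smad5 were 342.7, 142.5 and 110.7 kb, and nothing is read from their zeros. Of 12 bHLH genes of blood, endothelium and neurons, 0 had a Tbx4 summit, in domains with a median of 111 kb. Most of these domains were under 150 kb, a length at which 9.25% of all genes had a Tbx4 summit. Over all genes, with a median domain of 67.3 kb, 17.2% had Tbx4 summits, 6.83% Hoxc10 summits and 2.66% a co-bound pair. No list was tested against these shares.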

How the data were processed

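ChIP-seq peak summits of 2 samples were used, Tbx4 and Hoxc10 (Abcam antibody), 1 sample per group. Bowtie2 2.2.6, MACS2 2.1.1.20160309 and HOMER are named in the submitters' processing notes, with build mm10. The deposited score beside each summit is a MACS2 value on a −log10 scale. Not given in the sources used here: its kind (p-value or q-value), the control library and how the listed peaks were selected. Neither list gives read counts, so depth is unknown.

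Genes and biotypes came from a RefSeq table of GRCm38.p6, the same build, with gene ends but no strand. Promoter windows with strand came from RefSeq. A gene's domain ran to the nearest end of the next protein-coding gene on each side, or 1 Mb. An overlapping neighbour ended it at the gene and nested genes were ignored. Each Hoxc10 summit was paired with its nearest Tbx4 summit within 200 bp. Members and lists were chosen with earlier results of these data known, and no test was made. Named are the 7 genes, their neighbours, list genes with a co-bound pair or among the 3 with most summits, and the 3 genes most like Tcf4 in counts, with ties broken by domain length. Myod1, Myf5, Myf6, Myog, Twist1, Smad1, Smad4, Smad5, Sox11, Mctp2 and Auts2 were added after their values were seen. The Hoxc10 count of the list of blood, endothelial and neuronal genes is not reported here. Counting was checked on planted summits, with Python 3.11.15, pandas 2.3.3 and SciPy 1.17.1. Positions are 1-based.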

Additional observations from a re-analysis of the deposited data

How the results depend on the processing

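The counts moved with the reach of a domain, with the score limit and, for pairs, with the distance allowed. The 22 Tbx4 summits became 12 with at most 100 kb to each side, 9 with the next gene of any type as the edge, 8 with only 5 kb around the gene, and 8 with the 1876 highest-scoring Tbx4 summits (5.3 or more, ties kept). The 8 Hoxc10 summits became 4, 3 and 3 under the first 3 of these and 5 with scores at or above the list median. Genes with a Tbx4 summit fell to 2 of 7 with the highest-scoring Tbx4 summits, and genes with a Hoxc10 summit fell to 2 with the next gene of any type or with 5 kb. The co-bound pair, and with it the only gene that has one, was lost (0) under each of these 3 domains and at 100 bp, and there were 2 pairs at 500 and 1000 bp, both at Tcf4. Tcf4 had 5 Tbx4 and 2 Hoxc10 summits with 100 kb or the next gene of any type, and 4 and 2 with 5 kb. Of 161 values for single genes and settings, 124 stayed within 1.5 times and 37 moved. The 124 include many values that were 0 and stayed 0, such as all those of Tcf3. Most settings can only remove summits, so these zeros could hardly move and the 124 are no measure of stability. With 1 mismatch outside the core, the posterior Hox site was found in 2 of 7 promoter windows (16.2% of all windows) and the longer T-box site in 0 (7.72%). Smaller domains and shorter lists hold fewer summits by construction. No paired analysis was possible because each factor has 1 sample. Without replicates or read depth, the error of a count or score between embryos is unknown.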
